A study of Mus musculus with 8 samples.

Results

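The genes described here encode enzymes and carriers that burn fatty acids and pyruvate, nearly all of them inside mitochondria. Mdh1, the cytosolic malate dehydrogenase, is an exception. They were chosen by name from textbook pathways, as 42 genes, and 40 of them had at least 1 entry among the 3903 gene symbols of the cluster table. Cpt1a, whose product makes the acylcarnitines that enter mitochondria, and Suclg2, a subunit of succinyl-CoA ligase, had no entry, which does not mean that they were undetected. The 40 genes had 128 of the 13337 entries of the table.

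Preadipocytes were grown from the inguinal white fat of C57BL/6 mice aged 8 to 12 weeks, either wild type (WT) or lacking both nucleosome-binding proteins (Hmgn1-/- and Hmgn2-/-, DKO), and RNA of single cells was captured in droplets. Cells were taken as preadipocytes (day 0) or at day 6 of a browning protocol that drives white cells towards heat-producing ones, first with insulin, dexamethasone, IBMX, T3 and rosiglitazone and then with insulin and T3 alone. Each of the 4 groups (WT day 0, DKO day 0, WT day 6 and DKO day 6) had 2 samples, described in the methods as biological duplicates, 8 samples in all, and the labels do not say how many mice gave each. The table pools the cells of all samples into 12 clusters numbered 0 to 11, so that no value has a replicate, an SD or a test, genotype and day cannot be compared, and the cells and reads behind a value are unknown.

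Fatty acids enter the mitochondrial matrix as carnitine esters and are shortened there by repeated cycles of dehydrogenation, hydration, dehydrogenation and thiolysis. The acetyl-CoA released joins oxaloacetate in the citrate cycle, which also takes acetyl-CoA from pyruvate, and the electrons of both routes pass to the respiratory chain. Adipocytes are rich in these enzymes when they turn brown or beige, and white adipocytes also use pyruvate carboxylase to refill the cycle while they make fat.

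For each entry the authors deposited 2 detection fractions, the share of the cluster's cells and the share of all other cells in which at least 1 molecule of the gene was seen, printed here as percents. A gene is called higher or lower in a cluster where these differ by at least 10 percentage points. Since the authors listed a gene for a cluster only where its mean differed between the cluster and the rest, the listed genes are not a neutral sample, and each count of these genes called is set beside the share of all entries of that cluster called in that direction. Detection saturates near 100%, so each fraction was also turned into the mean count per cell that a Poisson distribution with that fraction would have, called here the Poisson-equivalent mean. Close to 100% this mean rests on the few cells in which the gene was not seen, so folds there are imprecise. The Poisson form itself was not tested. Over all cells, the detection of the 40 genes ran from 14.7% (Slc25a20) through a median of 46.1% to 83.8% (Etfb).

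The promoters of 4 of these genes are shown first, because Acadm, Hadh, Ech1 and Pcx are the 4 that were listed, and called higher, in cluster 8 as well as in cluster 11. Each line gives the 250 bases before a RefSeq start (GRCm38.p6, which is the mm10 build), read 5′ to 3′ along the gene, and Pcx has 2 starts. Capitals mark any match, on either strand, to AGGTCA (a half-site of nuclear receptors), GCGCATGC (a core of the NRF1 site) or CCAAT (the NF-Y site).
Acadm, chr3:153944644-153944893, minus strand: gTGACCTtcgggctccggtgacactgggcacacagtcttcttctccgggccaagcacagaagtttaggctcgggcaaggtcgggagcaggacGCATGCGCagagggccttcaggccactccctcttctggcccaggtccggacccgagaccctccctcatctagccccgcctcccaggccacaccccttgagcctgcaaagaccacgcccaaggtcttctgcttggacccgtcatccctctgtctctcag
Hadh, chr3:131272102-131272351, minus strand: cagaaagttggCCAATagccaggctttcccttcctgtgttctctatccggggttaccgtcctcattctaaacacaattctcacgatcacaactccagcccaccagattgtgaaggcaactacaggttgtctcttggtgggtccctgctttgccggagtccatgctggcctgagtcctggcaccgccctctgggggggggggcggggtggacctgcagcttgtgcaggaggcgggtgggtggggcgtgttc
Ech1, chr7:28825088-28825337, plus strand: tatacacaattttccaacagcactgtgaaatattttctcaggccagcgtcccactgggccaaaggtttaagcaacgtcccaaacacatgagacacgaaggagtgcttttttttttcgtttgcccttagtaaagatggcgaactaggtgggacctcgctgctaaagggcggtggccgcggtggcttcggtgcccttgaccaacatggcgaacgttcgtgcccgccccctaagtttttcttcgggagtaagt
Pcx upstream start, chr19:4510222-4510471, plus strand: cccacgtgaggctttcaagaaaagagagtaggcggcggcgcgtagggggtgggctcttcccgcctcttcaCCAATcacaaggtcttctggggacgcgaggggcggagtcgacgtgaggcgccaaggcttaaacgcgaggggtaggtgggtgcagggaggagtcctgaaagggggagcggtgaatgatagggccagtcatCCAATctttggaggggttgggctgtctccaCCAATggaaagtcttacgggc
Pcx downstream start, chr19:4594069-4594318, plus strand: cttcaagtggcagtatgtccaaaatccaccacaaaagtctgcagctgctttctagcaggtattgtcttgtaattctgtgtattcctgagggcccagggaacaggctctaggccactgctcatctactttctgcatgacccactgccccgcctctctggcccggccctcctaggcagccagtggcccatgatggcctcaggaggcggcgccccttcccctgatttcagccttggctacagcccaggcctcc

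The Acadm promoter held AGGTCA at -249 to -244 and GCGCATGC at -158 to -151, both on the minus strand, counted from the start. Hadh had CCAAT at -239 to -235 and the upstream Pcx start had 3 copies, while the bases shown for Ech1 and for the downstream Pcx start held none of these motifs. Past its start, outside the bases shown, the downstream Pcx window held CCAAT at 36 to 40 and, overlapping it by 1 base, AGGTCA on the minus strand at 40 to 45. RefSeq promoters, from 250 bases before to 50 after the start, were found for 38 of the 42 genes (45 windows). In these, AGGTCA stood in 26.7% of the windows of the member genes, against 16.3% of all 32851 promoters and 12.6% of the promoters of genes in the cluster table. Over the whole windows, GCGCATGC stood in 13.3% of the member windows, against 2.71% and 5.52%, and CCAAT in 55.6%, against 37.4% and 39.1%. Genes with several starts count more than once in these shares. The 6 GCGCATGC windows belonged to 5 genes, and the 25 CCAAT windows to 19 of the 38. The CREB motif TGACGTCA was found in 8.89% of the member windows against 1.79% and 2.81%, but its 4 windows belonged to Mdh2 and to the several starts of Ogdh. The ERR motif TCAAGGTCA, which contains AGGTCA, was found in Sdhd alone, and a direct repeat of AGGTCA with 1 base between, the PPAR type of site, in 0 of the 45 windows against 0.0396% of all promoters. An exact repeat that rare is unlikely to turn up in 45 windows, so the 0 does not show that these genes lack such sites. These are matches of letters in a short window, and no binding was measured.

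Cluster 11 was the smallest population, with 1.5% of all cells as solved from the detection fractions, and every one of the 40 listed genes was detected in more of its cells than elsewhere. All 40 were called higher there, against 44.4% of the 2487 entries of cluster 11, while 28.7% of its entries were called lower. The difference in detection ran from 16.0 (Mdh2) to 79.0 (Pcx) percentage points with a median of 43.8, and the median over all entries of the cluster was 6.60. In cluster 11, 29 of the 40 genes were detected in at least 90% of the cells, and outside it 0 of 40 were. For 3 of the 40 genes (Acads, Eci2 and Cpt2) cluster 11 was the only cluster with an entry, and 23 were listed in no cluster other than 4, 10 and 11, so that an order of the clusters by detection could not be given for them. The adipocyte markers moved with these genes. All 14 were listed in cluster 11 and 13 were called higher, with Plin1, a lipid droplet coat protein, detected in 99.8% of its cells against 14.4% of the others. Lpl, the 14th, was already detected in 92.0% of the others. Over all entries of cluster 11 the median detection was 66.4% inside and 48.7% elsewhere, and the 12 listed mitochondrially encoded transcripts were 0.8 to 46.5 points higher inside. The part of the marker genes and of this general difference in detection was not tested.

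**Figure D1:**
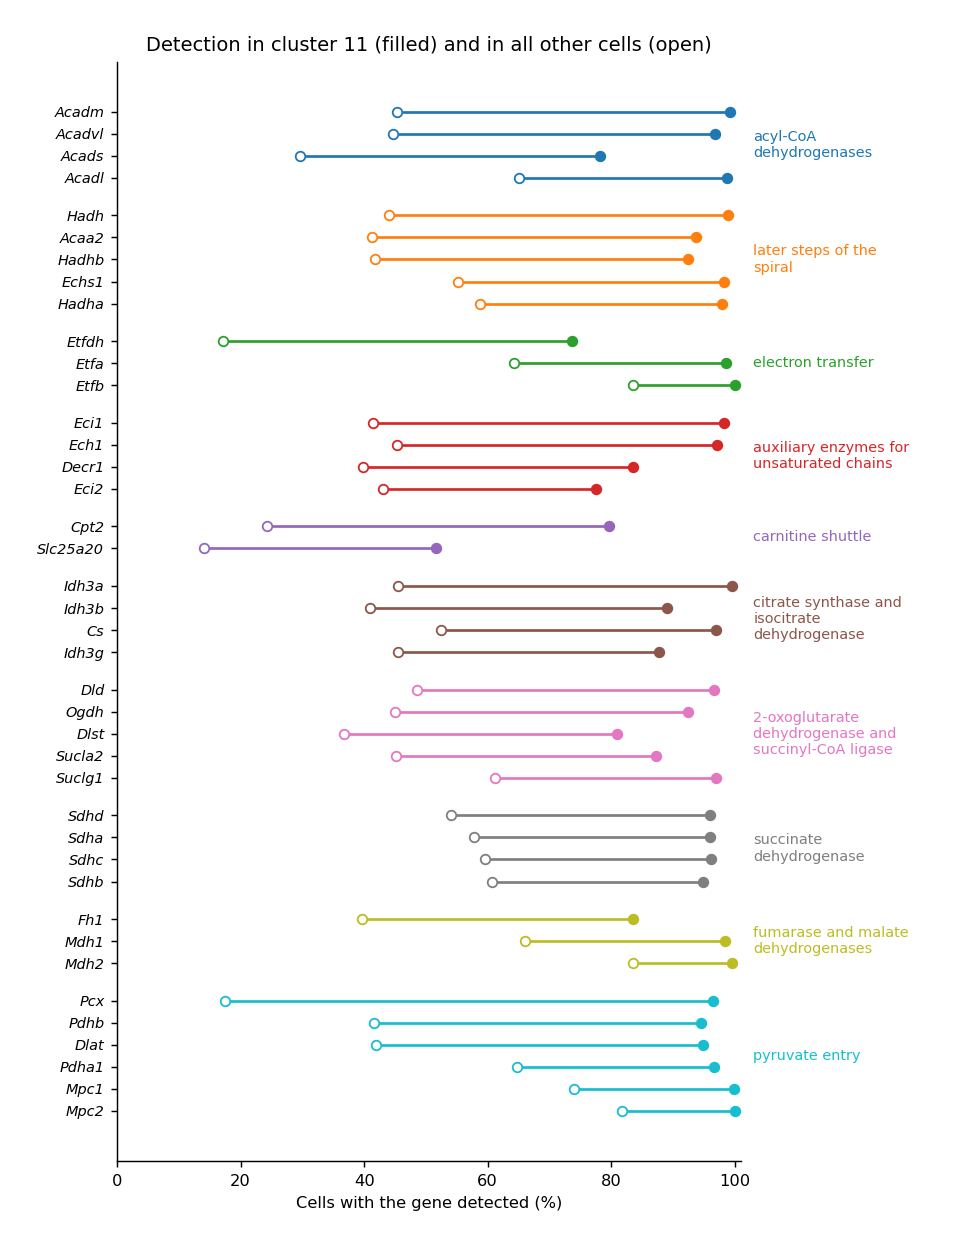
Percent of cells with each gene detected (x axis) in cluster 11 (filled points) and in all other cells (open points) for the 40 listed genes, coloured by role. Every filled point lies to the right of its open point, from 16.0 percentage points for Mdh2 to 79.0 for Pcx.

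The dehydrogenases that open each cycle of fatty acid shortening differ in the chain length they accept. Acadm, which acts on medium chains (chromosome 3, 153922357 to 153944632, minus strand, protein-coding), was detected in 99.3% of cluster 11 cells and in 45.3% of the others. Acadvl, for very long chains, was detected in 96.8% against 44.6%, and Acadl, for long chains, in 98.7% against 65.1%. Acads, for short chains, was the least often seen of the 4, in 78.2% against 29.7%, and it was listed in no other cluster. On the scale of Poisson-equivalent means the difference was 8.22-fold for Acadm and between 4.13-fold and 5.83-fold for the other three.

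The later steps gave detections in cluster 11 between 92.4% and 98.9% for all 5 genes. Hadh, the dehydrogenase for medium and short hydroxyacyl chains (chromosome 3, 131233419 to 131272101, minus strand), was seen in 98.9% of cluster 11 cells versus 44.0% elsewhere. Acaa2, a thiolase, was seen in 93.7% against 41.3%, and Echs1, the short-chain hydratase, in 98.2% against 55.2%. Hadha and Hadhb, the 2 subunits of the trifunctional protein, lie head to head on chromosome 5 with 85 bases between them in the annotation. Hadha was detected in 98.0% against 58.7% and Hadhb in 92.4% against 41.8%, and their Poisson-equivalent folds were close, at 4.42 and 4.76.

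Electrons from the first step pass through the flavoprotein ETF and its oxidoreductase to ubiquinone. Etfa and Etfb, the ETF subunits, were detected in 98.6% and 100% of cluster 11 cells, against 64.2% and 83.6% of the others. Etfdh, the oxidoreductase, was sparse outside the cluster at 17.2%, and reached 73.6% inside it. Its Poisson-equivalent fold of 7.06 was above the 4.16 of Etfa. For Etfb only a bound of at least 4.20-fold can be given, because a value of 100% is rounded.

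Unsaturated chains need isomerases and a reductase beside the main cycle. Eci1, an isomerase, was detected in 98.2% of cluster 11 cells and in 41.4% of the others, while its relative Eci2 was detected in 77.5% against 43.1%. The 2 isomerases were thus seen about equally often outside the cluster and differed by more than 20 percentage points inside it, and Eci2 had the lowest Poisson-equivalent fold of all 40 genes, 2.65, against 7.52 for Eci1. Ech1, a dienoyl-CoA isomerase (chromosome 7, 28825217 to 28832247, plus strand), was seen in 97.1% against 45.4%. Decr1, the dienoyl-CoA reductase, was seen in 83.5% against 39.8%. Of the carnitine shuttle, Cpt2, which releases the fatty acid from carnitine in the matrix, was detected in 79.7% against 24.2%. Slc25a20, the carnitine carrier of the inner membrane, had the lowest detection of any of the 40 genes inside the cluster, 51.6% against 14.1%.

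By role, the median Poisson-equivalent folds of the citrate cycle genes in cluster 11 lay near each other. They ran from 3.56 for fumarase and the malate dehydrogenases to 4.43 for citrate synthase and isocitrate dehydrogenase. The subunits of isocitrate dehydrogenase differed by more than that. Idh3a, the catalytic subunit of isocitrate dehydrogenase, was detected in 99.5% of cluster 11 cells against 45.5%, an 8.73-fold difference of Poisson-equivalent means. Idh3b (89.0% against 41.0%) and Idh3g (87.8% against 45.5%) belong to the same enzyme and had folds of 4.18 and 3.47. Cs, citrate synthase, was detected in 96.9% against 52.4%. The 4 subunits of succinate dehydrogenase were alike in both populations. Sdha, Sdhb, Sdhc and Sdhd were detected in 94.8% to 96.2% of cluster 11 cells and in 54.0% to 60.7% of the others, with folds from 3.17 to 4.15. Among the subunits of the 2-oxoglutarate complex, Dld, which is shared with the pyruvate and branched-chain complexes, was seen in 96.6% against 48.5%, Ogdh in 92.4% against 45.0% and Dlst in 80.9% against 36.8%. Suclg1 and Sucla2, of succinyl-CoA ligase, were seen in 96.9% against 61.2% and in 87.2% against 45.2%. Fh1, fumarase, was seen in 83.5% against 39.7%. The malate dehydrogenases were widely detected outside the cluster, the cytosolic Mdh1 in 66.0% and the mitochondrial Mdh2 in 83.6% of the other cells. Their differences were 32.4 and 16.0 points, and Mdh2 was missing in 0.4% of cluster 11 cells and in 16.4% of the others.

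Pyruvate enters the mitochondrion through the carrier MPC and is then split between a dehydrogenase, which makes acetyl-CoA, and a carboxylase, which makes oxaloacetate. The carboxylase gene Pcx (chromosome 19, 4510472 to 4621752, plus strand, protein-coding) stood apart from all other members. It was detected in 96.4% of cluster 11 cells and in 17.4% of the others, a difference of 79.0 points that ranked 10th among the 2487 entries of the cluster, and a 17.4-fold difference of Poisson-equivalent means. The next largest difference among the members was 56.8 points, for Eci1, at rank 110. Pdhb and Dlat, subunits of the pyruvate dehydrogenase complex, were detected in 94.6% and 94.8% of cluster 11 cells against 41.6% and 42.0%. Pdha1 was seen in more of the other cells (64.8%), and in 96.6% of cluster 11. The carrier genes Mpc1 and Mpc2 reached 99.8% and 100% in cluster 11, from 73.9% and 81.7% elsewhere.

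The other genes of these pathways were looked up as a list of 54, of which 35 had an entry. In cluster 11, 28 were listed and all 28 were called higher, against 44.4% of all entries of the cluster, with a median difference of 45.4 points against 6.60 over all entries. Among those with the largest differences were Ppargc1b, a coactivator of mitochondrial genes (79.7% of cluster 11 cells against 3.8% of the others), Acsl1, which activates long-chain fatty acids (99.5% against 27.1%), and Crat, carnitine acetyltransferase (84.2% against 16.7%), then Hibch, Aco1, Bckdhb and Hsd17b4. Hsd17b4 belongs to the peroxisomal route of fatty acid oxidation and was detected in 88.1% of cluster 11 cells versus 35.0% elsewhere. Hibch and Bckdhb act on branched-chain amino acids and were seen in 83.6% against 19.7% and in 69.4% against 13.3%. Aco1, the cytosolic aconitase, was seen in 90.3% against 26.5%. Entries of this list outside cluster 11 went both ways. In cluster 5, 4 of 7 listed were called higher (72.1% of all entries) and 3 lower. In cluster 9, 3 of 4 were called higher (76.9% of all entries). Idh2 was 40.1 and 38.8 points higher in these clusters, was called lower in cluster 2, and had no entry in cluster 11. Acsl1 was also called higher in clusters 2, 4 and 6 (59.9% against 25.7% in cluster 6). It was called lower in clusters 0, 1, 3, 5 and 10.

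Outside clusters 4, 10 and 11 these genes were rarely listed, in 37 entries of 17 genes, and cluster 3 had none. Cluster 8 was the only one of these in which every listed gene was called higher, 4 of 4, against 26.2% of the 1126 entries of the cluster. Acadm was detected in 71.8% of cluster 8 cells and in 44.5% of the others, Hadh in 70.8% against 43.2%, and Ech1 in 72.5% against 44.6%. Pcx was detected in 55.3% against 16.3%, a 4.53-fold difference of Poisson-equivalent means where the other three had 2.15 to 2.19. For these 4 genes, detection in cluster 8 lay between that of cluster 11 and the mean over the clusters without an entry, which was 47.6% for Acadm, 47.6% for Hadh, 46.5% for Ech1 and 19.4% for Pcx. Their place above that mean follows from their choice as genes called higher in cluster 8. The clusters without an entry include the low-detection cluster 10 for Ech1 and Pcx, but not for Acadm and Hadh. Of the 14 adipocyte markers 8 were listed in cluster 8 and 7 were called higher, among them Pparg, the main transcription factor of fat cells, at 44.8% against 14.1%. Adipocyte markers were also called higher in cluster 2 (5 of 5 listed) and cluster 6 (4 of 4 listed), where Plin1 was found in 27.8% and 45.5% of the cells, and in cluster 6 the proliferation markers were called higher as well (8 of 8 listed). Of the oxidation genes 2 were listed in cluster 2 and 1 in cluster 6, and 0 of these were called higher, against 24.6% of all entries of cluster 2 and 51.9% of cluster 6. So few listed genes allow no comparison with cluster 8.

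**Figure D2:**
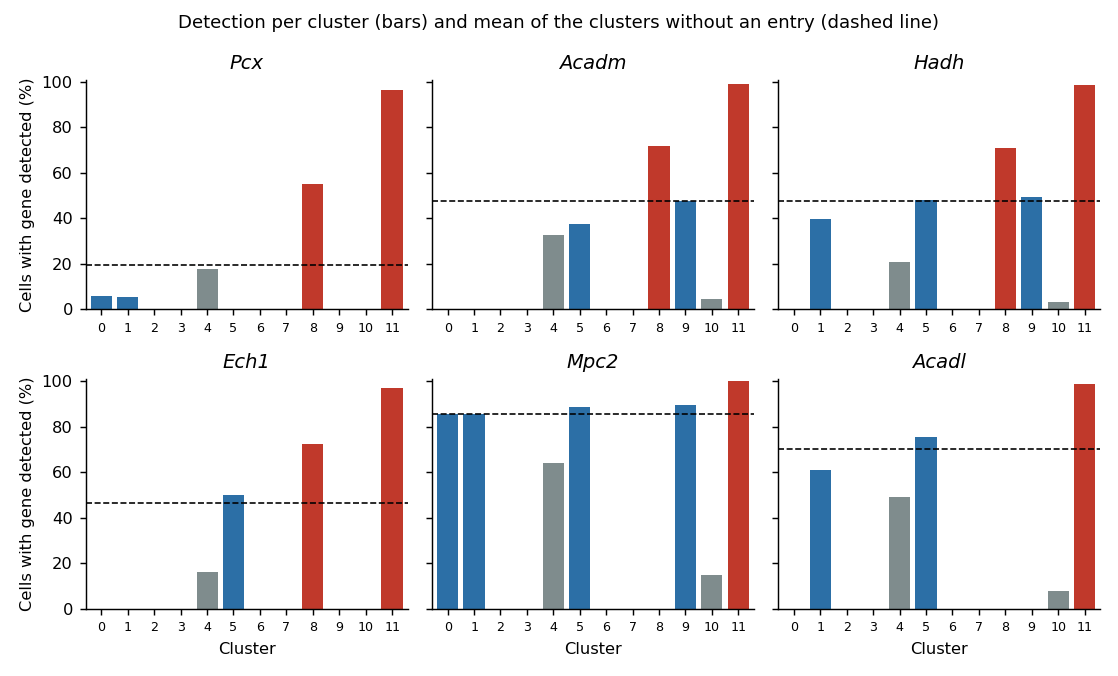
Percent of cells with the gene detected (y axis) in each cluster with an entry (bars) for 6 genes, with clusters 8 and 11 in red, 4 and 10 in grey and others in blue. The dashed line is the mean over the clusters without an entry, and an absent bar means no entry. Pcx, Acadm, Hadh and Ech1 exceed their line in clusters 8 and 11, whereas Mpc2 and Acadl have no entry in cluster 8.

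Pcx also reached low values. It was found in 5.7% of cluster 0 cells and 5.6% of cluster 1 cells, against 20.8% of the others in each case, and was called lower in both. Cluster 0 had 1 of 3 listed genes called lower, against 15% of its 694 entries, and cluster 1 had 2 of 7, against 21% of its 729 entries. The other one in cluster 1 was Acaa2, at 33.1% against 43.5%. With the low-detection clusters 4 and 10 left out of the other cells, 2 more genes would be called lower in cluster 1. These were Hadh, from -5.9 to -11.0 points, and Acadl, from -5.6 to -10.5 points. In cluster 2, Sdhb was called lower (48.3% against 63.0%), which was 1 of 2 listed genes against 34.5% of all entries. In cluster 7 the single listed gene, Idh3a, was called lower (32.1% against 47.3%), against 13.9% of all entries.

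In clusters 5 and 9, as in cluster 6, the proliferation markers were called higher (7 of 7 and 8 of 8 listed). The listed member genes showed small differences there. In cluster 5, 3 of 12 listed genes were called higher against 72.1% of its 1057 entries, namely Etfa (76.9% against 63.5%), Acadl (75.7% against 64.7%) and Mpc1 (84.3% against 73.3%). In cluster 9, 2 of 7 were called higher against 76.9% of its 938 entries, Mdh1 (78.5% against 65.7%) and Mpc1 (85.6% against 73.5%). In both clusters the share of the listed genes called was below the share of all entries. The other cells in these comparisons include the low-detection clusters 4 and 10. With those set aside, the differences were 6.74 points for Acadl and 6.42 for Mpc1 in cluster 5, and 8.16 for Mdh1 and 7.65 for Mpc1 in cluster 9, so that none of these 4 would be called. Etfa has no entry in cluster 10 and could not be recomputed. Acadm in cluster 5 moved the other way, from -9.5 points to -13.0 points with clusters 4 and 10 set aside, and would be called lower. In cluster 6, Sdhb was listed without a call, at 67.7% against 60.7%.

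**Figure D3:**
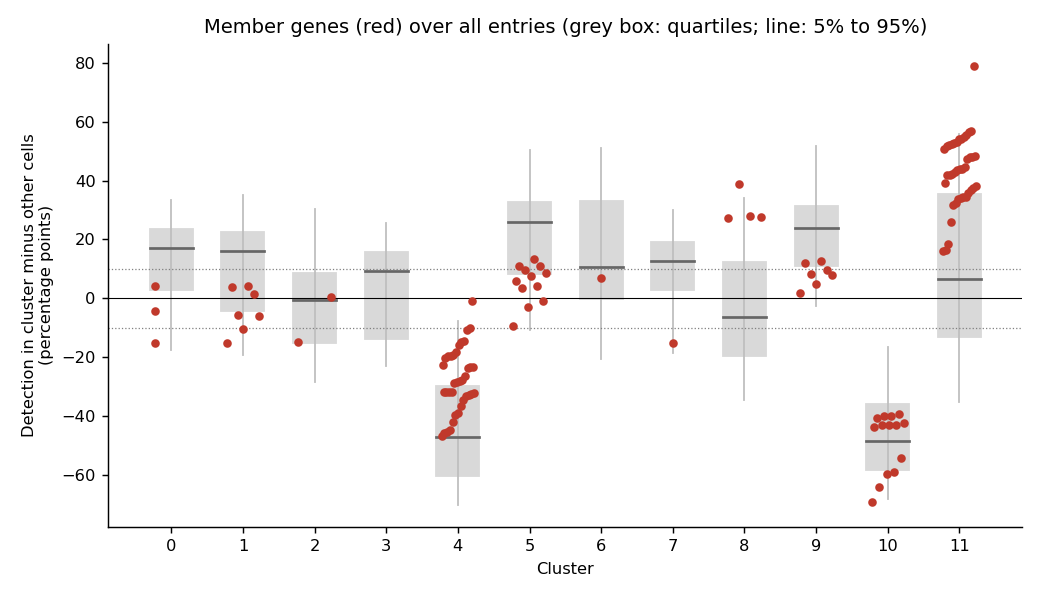
Detection in the cluster minus detection in all other cells, in percentage points (y axis), for each listed member gene (red points) by cluster (x axis). Grey boxes give the quartiles over all entries of the cluster, the dark line their median, the thin line the range from 5% to 95%, and dotted lines the limits at 10 points. The 40 points of cluster 11 lie above the upper limit, those of cluster 10 lie below the lower limit, and in cluster 4 only Pcx stays near 0.

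Clusters 4 and 10 held 9.59% and 3.22% of all cells, and most genes were detected in few of their cells. In cluster 4, 36 of 37 listed genes were called lower, against 92.8% of the 2072 entries, and in cluster 10 14 of 14 were, against 98.5% of the 718 entries, so that the counts say little about these genes. The sizes differed more. In cluster 4 the median of the 37 genes was -28.3 points, against -47.2 over all entries, and their detection was a median 0.466 of that in the other cells, against 0.171 over all entries. A ratio of at least 0.5 was held by 35.1% of the listed genes and by 14.8% of all entries. In cluster 10 the order was turned, with a median ratio of 0.0924 for the 14 genes and 0.140 over all entries. Cluster 10 listed only these 14, all of them lower there, so the medians of both clusters cover different genes. The low ratio in cluster 10 follows in part from that listing and is no result about the pathway.

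Within cluster 4 the genes were spread widely. Pcx was detected in 17.8% of cluster 4 cells versus 18.7% elsewhere, a ratio of 0.952 and the only listed member not called. Mpc2 (64.2% against 83.9%), Mpc1 (56.4% against 76.1%), Acadl (49.0% against 67.4%), Idh3a (33.1% against 47.7%) and Acadm (32.6% against 47.5%) kept ratios between 0.686 and 0.765. At the other end, Fh1 (11.7% against 43.4%), Sdhc (18.6% against 64.5%), Idh3b (13.0% against 44.8%), Sucla2 (14.5% against 49.2%) and Dlst (12% against 40.2%) had ratios between 0.270 and 0.299. By role, the median Poisson-equivalent ratio to the other cells was 0.601 for the 3 listed acyl-CoA dehydrogenases, 0.368 for the 5 later steps of the cycle and 0.233 for the 4 subunits of succinate dehydrogenase. Subunits of 1 enzyme also parted here, with a detection ratio of 0.694 for Idh3a against 0.290 for Idh3b and 0.352 for Idh3g.

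Both clusters listed 14 of the genes, so that these could be set side by side. Detection in cluster 4 was above that in cluster 10 for 14 of 14, against 60.0% of the 483 genes listed in both. A gene entered this comparison only if it was listed in cluster 10, and all 14 were listed there as lower. Their low values in cluster 10 follow in part from that choice, so the count is a description only. The members ran from 16.4% to 64.2% in the former and between 3.3% and 14.8% in the latter, with medians of 28.7% and 4.35%. Over all 483 genes the medians were 17.7% and 10.6%. Acadm, for example, was detected in 32.6% of cluster 4 cells and 4.5% of those of cluster 10, Idh3a in 33.1% and 4.7%, and Acaa2 in 27.7% and 3.9%. All 14 adipocyte markers were listed in cluster 4, 7 of them called higher and 0 lower, where 92.8% of all entries were called lower. Of those not called, Lpl, Pparg, Dgat2 and Cebpa were 3.8 to 6.8 points lower, and Retn, Plin4 and Cidec were 2.4 to 9.8 points higher. In cluster 10 all 9 that were listed were called lower, against 98.5% of all entries. The 7 mitochondrially encoded transcripts listed in both were detected in 36.2% to 99.7% of cluster 4 cells and in 8.1% to 76.9% of those of cluster 10. The part of either in the difference was not tested.

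**Figure D4:**
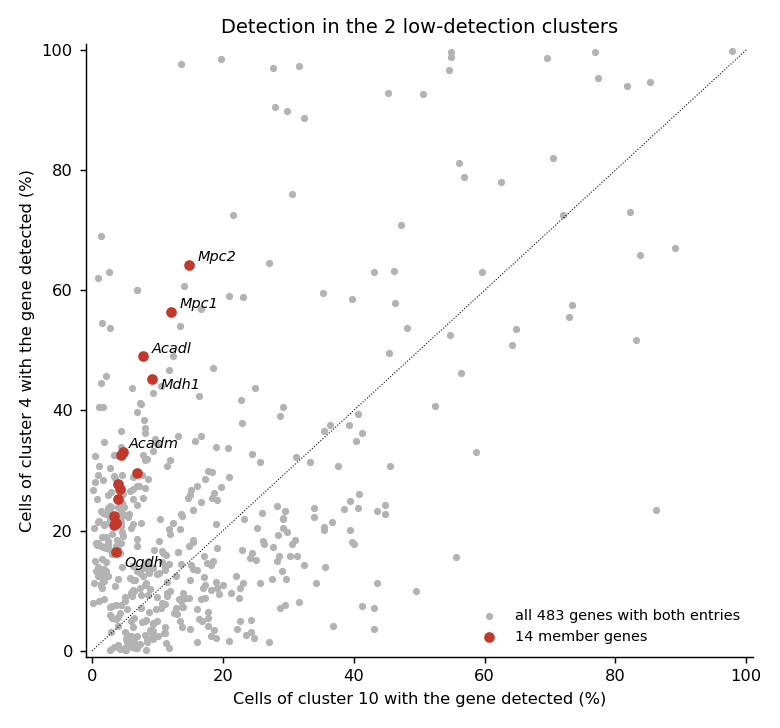
Percent of cells with the gene detected in cluster 4 (y axis) against cluster 10 (x axis), for 483 genes listed in both (grey) and the 14 member genes among them (red). The dotted line marks equal detection, and all 14 red points lie above it, from Ogdh at 16.4% to Mpc2 at 64.2% in cluster 4.

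The check of cell identity used marker lists only as a description. Of the 6 thermogenic markers 3 had an entry in any cluster. These 3, Ppargc1a, Elovl3 and Cox7a1, were listed and called higher in cluster 11, against 44.4% of all its entries. They were found in 47.5%, 36.7% and 72.3% of its cells against 1.8%, 2.8% and 13.8%, whereas they had no entry in cluster 8. Immune, endothelial and glial markers, 4 of each, had 0 entries in the table. The authors had removed such cells before this clustering, and a missing entry does not mean undetected, so this is no check of identity. Of the 8 preadipocyte markers 5 were listed in cluster 11, and 4 of these were called lower, against 28.7% of all its entries.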

How the data were processed

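Single-cell RNA of 8 samples (2 for each genotype and day) was captured with 3′ droplet chemistry. As the methods describe, the authors mapped reads to mm10 with Cell Ranger 6.0.0 (also named in the submitters' processing notes), equalized depth between captures, dropped cells with under 500 genes or over 10% mitochondrial reads, removed immune, glial and endothelial cells, and formed 12 clusters in Seurat at a resolution of 0.6. Each was compared with the remaining cells, keeping genes detected in a fraction of at least 0.1 on either side and with a log fold change of at least 0.25. No removal of doublets is described. The deposited fractions of cells with a gene detected, in the cluster and in all others, are the values used here, as percents rounded to 0.1. The fold changes and p-values beside them are the authors' own comparison and were not used. No column holds values of a single sample (0 left unused), so nothing was tested.

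Cluster shares were solved by least squares from the 10 genes listed in all 12 clusters, since the share-weighted mean of both fractions must be equal from every cluster. The solver was tested on simulated data. The shares summed to 99.9%, and the detection over all cells from different entries of a member gene differed by at most 0.0925 percentage points. Means over clusters without an entry followed by subtraction. Poisson-equivalent means are -ln(1 - fraction), with 1.000 taken as 0.9995. Locations are from GENCODE M21 (GRCm38) and promoters from RefSeq. All members could be named, grouped by role. Of the other pathway genes, those with the 8 largest differences in cluster 11 were to be named, and 1 of these is not reported here. Members and lists were chosen with earlier results of these data known. Python 3.11.15, numpy 2.4.6, pandas 2.3.3 and matplotlib 3.10.9 were used.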

Additional observations from a re-analysis of the deposited data

How the results depend on the processing

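No paired analysis was possible because the cells of all samples are pooled, which also prevents leaving out a replicate. In clusters 4, 10 and 11 the counts of called genes stayed within 1.5 times under minimums of 5 and 20 points and under a Poisson-equivalent fold of 1.5, with 37 of 40 called in cluster 11 and 27 of 37 in cluster 4 at 20 points. Against other cells outside clusters 4 and 10, which only genes with entries in both allow, 14 of 14 were called higher in cluster 11, and the lower number comes from the fewer genes. The counts in the other 9 clusters moved more. The 9 entries called higher became 17 at 5 points, 4 at 20 points, 4 by the Poisson-equivalent fold (those of cluster 8) and 2 of 26 outside clusters 4 and 10. Those 2 were Acadm (24.3 points) and Hadh (23.4 points) in cluster 8. Pcx and Ech1 of cluster 8 and Etfa of cluster 5 have no entry in cluster 10 and could not be recomputed. The 5 called lower became 8 at 5 points and 0 at 20 points. The median difference in cluster 11 was 48.0 points outside clusters 4 and 10, and the share of cluster 11 was 1.52% when solved from all genes with 2 or more entries. When only bases before the start were searched, motif counts changed by over 1.5 times for TCAAGGTCA alone, from 1 to 0. The windows with AGGTCA fell from 12 to 8, which is at that limit. Cell numbers and reads per cluster are unknown, so counting error and depth were not measured.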
